A study of Mus musculus with 6 samples.

Results

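The 10 genes described here set the pace of the G1 phase of the cell cycle. They are the D-type cyclins Ccnd1, Ccnd2 and Ccnd3, the kinases Cdk4 and Cdk6, the CIP/KIP inhibitors Cdkn1a and Cdkn1b, and the INK4 inhibitors Cdkn2a, Cdkn2b and Cdkn2c. They were chosen by symbol from the deposited table, and all 10 of the 10 listed were found among its 23472 named genes. Each of them also passed the filter on low counts, as did 14869 genes in all. Transcripts were measured by RNA sequencing in liver sinusoidal endothelial cells, the perforated endothelium of the liver's smallest vessels, in 3 libraries of RBPjcKO mice and 3 of wild-type (WT) mice. RBPjcKO mice carry a conditional knockout of Rbpj in endothelium, which removes the factor that brings activated Notch to DNA. Mice of both genotypes were of the C57BL/6 strain, were 7 to 8 weeks old and received tamoxifen by intraperitoneal injection. The labels name no Cre driver, purification method or number of animals per library. Nothing says that the libraries of a genotype came from separate animals, and p-values then measure only the spread among them, which may be technical.

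In G1, a D-type cyclin binds Cdk4 or Cdk6, and the complex phosphorylates the retinoblastoma protein, which releases E2F factors to switch on genes of DNA replication. INK4 proteins bind Cdk4 and Cdk6 and keep the cyclin out, while the CIP/KIP proteins p21 (Cdkn1a) and p27 (Cdkn1b) hold cyclin E and Cdk2 in check. In endothelium, Notch activity is known to favour arrest, and p27 is among the inhibitors linked to that arrest. Sinusoidal endothelial cells of the adult liver divide rarely.

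Rbpj itself stood at 17.0, 19.8 and 17.6 CPM in the RBPjcKO libraries, against 41.6, 46.9 and 45.5 CPM in the WT libraries, counted over the whole gene, so that reads from outside any deleted part are included. Its log2 fold change was -1.30 (SE 0.10, adjusted p = 0.000982, edgeR), 2.47-fold lower in RBPjcKO. Levels are given as CPM, read counts relative to the library total after TMM scaling, with mean ± SD over 3 libraries a group. Named genes received 30958761 to 40459702 counts per library. All 12 of 12 sinusoidal endothelial markers were detected, with 1 called higher and 2 called lower. Their summed level was 29440 to 34919 CPM in RBPjcKO and 30963 to 35593 CPM in WT libraries. Markers of other cells were present as well. The 18 hepatocyte markers summed to 1728, 2315 and 5041 CPM in RBPjcKO replicates 1 to 3 and to 2261, 1205 and 1488 CPM in WT replicates 1 to 3, with 5 of 18 called higher and none at 0. Kupffer cell markers (10 of 10 found, 0 called) summed to 592 to 1796 CPM in RBPjcKO and 1216 to 2600 CPM in WT libraries. Granulocyte markers (8 of 9 found, 2 called higher) summed to 441 to 1132 CPM in RBPjcKO and 113 to 570 CPM in WT, and stellate cell and fibroblast markers (10 of 10 found, 2 called lower) to 1229 to 1963 CPM in RBPjcKO and 1900 to 2126 CPM in WT. Cholangiocyte markers (7 of 7 found, 4 called lower) summed to 83.3 to 123 CPM in RBPjcKO and 188 to 384 CPM in WT, and lymphocyte markers (13 of 13 found, 2 called higher) to 43.8 to 87.7 CPM in RBPjcKO and 83.9 to 88.9 CPM in WT. Erythroid and platelet markers (8 of 8 found, 2 called higher, Ppbp at 0 in at least 1 library) summed to 55.7 to 63.9 CPM in RBPjcKO and 27.2 to 40.7 CPM in WT. In these bulk libraries, a change in the share of cells of a type and a change in RNA per cell cannot be told apart.

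Of the 10 genes, 4 rose in RBPjcKO cells and none fell. The kinase gene Cdk4 and the cyclin gene Ccnd3 rose modestly, and the inhibitor genes Cdkn2a and Cdkn2b, neighbours on chromosome 4, rose further. Among all genes tested, 9.0% were called higher, 7.74% lower and 16.7% in either direction (edgeR's quasi-likelihood test, adjusted p under 0.05). At an unadjusted p under 0.05, 6 of the genes were higher and 0 lower, against 2666 higher and 2473 lower of all 14869. DESeq2 called 6 higher and 0 lower, against 12.7% of all genes called higher by that tool. The median log2 fold change was 0.44 over the 10 genes and 0.00 over all genes tested. The 3 RBPjcKO libraries lay wholly above the 3 WT libraries for 6 of the 10, namely Ccnd3, Cdk4, Cdkn1a, Cdkn2a, Cdkn2b and Cdkn2c, where 20.7% of all genes did so, and below them for 0 of the 10, where 19.6% did so (40.3% either way). With the mean log2 level of 18 hepatocyte markers as a covariate, 0 of the 10 were called, where 2.02% of all genes were, and 3 of the 10 had an unadjusted p under 0.05 (edgeR).

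**Figure D1:**
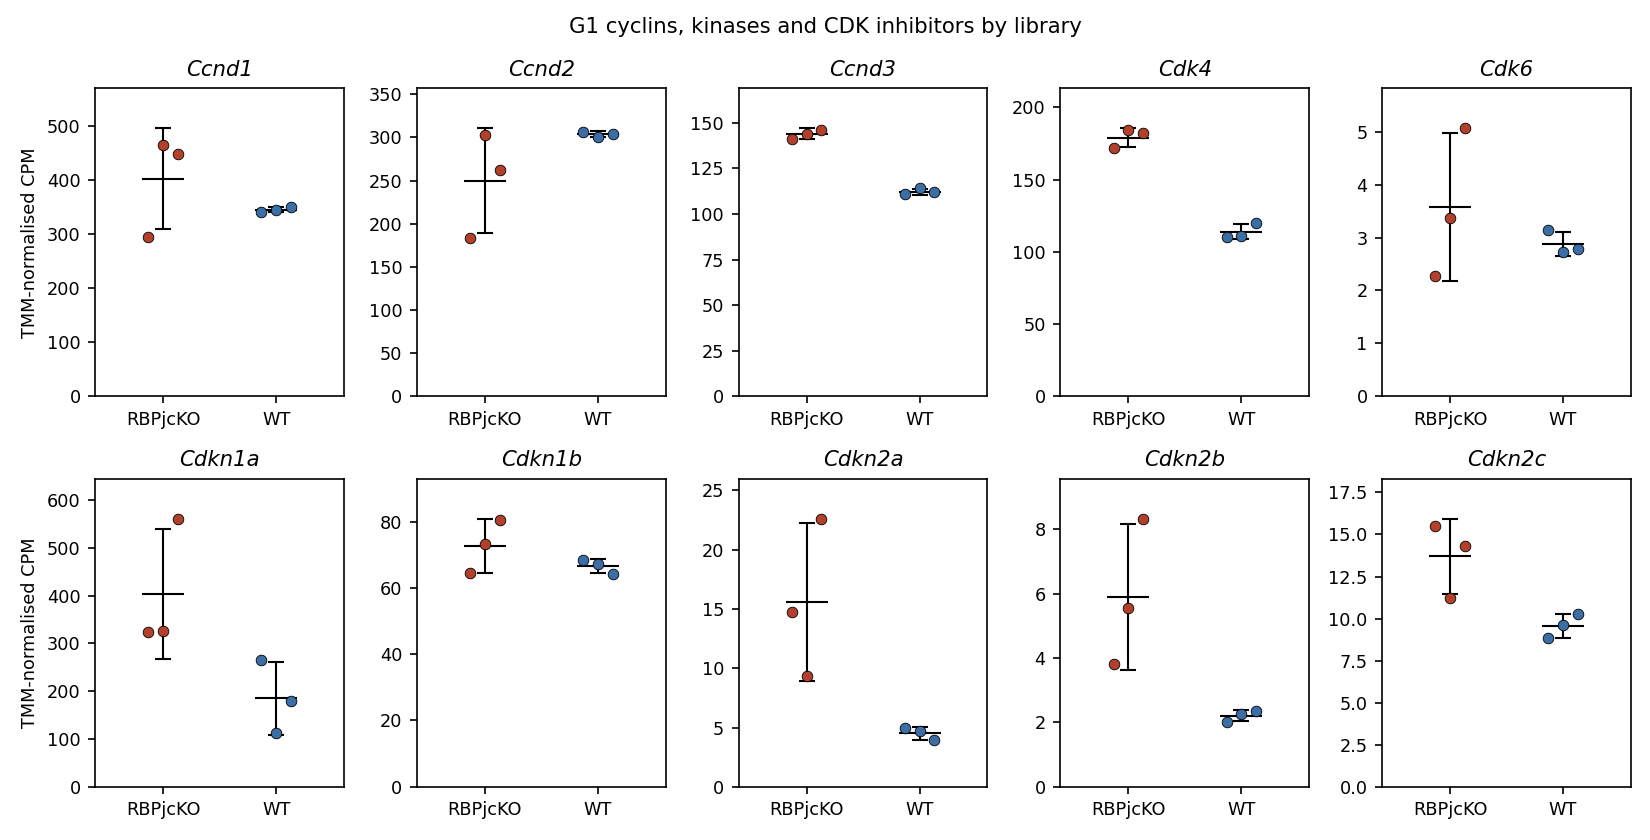
TMM-normalised CPM (vertical axes, linear from 0) of the 10 genes in RBPjcKO (left, red) and WT (right, blue) libraries; each point is a library and the black bar and whiskers give the mean and SD of 3. Cdk4 lies between 172 and 184 CPM in RBPjcKO and between 110 and 120 CPM in WT libraries, whereas the groups overlap for Ccnd1, Ccnd2, Cdk6 and Cdkn1b.

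Among the kinases, Cdk4 (chromosome 10, 127063603 to 127067282, GRCm38, plus strand) stood at 172, 184 and 182 CPM in the RBPjcKO libraries, against 110, 111 and 120 CPM in the WT libraries. The groups were well apart, and the spread within each was small. The mean was 179 ± 6.39 CPM in RBPjcKO and 114 ± 5.22 CPM in WT (SD, n = 3 each), a 1.58-fold rise with a log2 fold change of 0.66 (SE 0.08, adjusted p = 0.00346). Cdk4 was the only gene of the 10 that kept its call in all 6 fits that left out 1 library, with log2 fold changes from 0.63 to 0.69, and with the hepatocyte covariate it was 0.63 (adjusted p = 0.0617). Cdk6, which encodes the alternative D cyclin partner (chromosome 5, 3344312 to 3522225), was scarce in both groups, at 2.28, 3.36 and 5.06 CPM in RBPjcKO and 3.14, 2.73 and 2.78 CPM in WT libraries. The RBPjcKO libraries lay on both sides of the WT libraries, and the log2 fold change of 0.31 (SE 0.31, adjusted p = 0.514) turned to -0.03 without RBPjcKO replicate 3.

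The sequence before the start of Cdk4 is shown because the E-box CACGTG, a motif that the Myc protein is known to bind, recurs in it. Promoter sequences were taken from RefSeq (GRCm38.p6), in which 8 of the 10 genes matched, as the 250 bases before each of 12 annotated starts. Capitals mark the E-box CACGTG, the RBPJ core TGGGAA and the E2F motif TTTNGCGC, each searched on both strands, and matches are descriptions, not binding sites. The window of Cdk4 lies at chr10:127063285-127063534, plus strand.
Cdk4: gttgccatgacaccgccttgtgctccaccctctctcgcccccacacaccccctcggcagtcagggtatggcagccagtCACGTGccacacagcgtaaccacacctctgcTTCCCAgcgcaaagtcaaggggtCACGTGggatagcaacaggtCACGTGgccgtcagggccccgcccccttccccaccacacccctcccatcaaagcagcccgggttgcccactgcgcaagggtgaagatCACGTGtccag
It held the E-box 4 times, beginning 172, 118, 98 and 11 bases before the start, and the RBPJ core once, on the other strand, 141 bases before it. Of 32851 windows of this length, 6.02% held an E-box at least once, and 7, from 5 genes, held it at least 4 times. The cut of 4 is the count in the Cdk4 window, which was picked because the motif recurs there. The rarity is therefore a description and not a test. Of the 12 windows of these genes, 2 held an E-box (Cdk4 and Cdk6), 3 held the RBPJ core (Cdk4, Cdkn2a and Cdkn1a) and 1 held the E2F motif (Cdkn2a), against 6.02%, 21.6% and 1.13% of all windows.

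Of the 3 D-type cyclin genes, 1 passed the test, Ccnd3. Ccnd3 (chromosome 17, 47505051 to 47599688, plus strand) stood at 141, 144 and 146 CPM in RBPjcKO, against 111, 114 and 112 CPM in WT libraries. The groups did not overlap, and the 1.28-fold rise had a log2 fold change of 0.36 (SE 0.07, adjusted p = 0.0168). Its call was lost without RBPjcKO replicate 2 (adjusted p = 0.0534), WT replicate 2 (0.0701) or WT replicate 3 (0.0525), while the log2 fold change stayed between 0.35 and 0.36, and with the hepatocyte covariate it was 0.34 (adjusted p = 0.186). Ccnd3 shares 358 bases at its end with Bysl on the opposite strand, and Bysl, a ribosome assembly gene, also rose (1.36-fold, adjusted p = 0.0300 with clones included). Since the strand setting of the counting is not given, reads in those bases cannot be assigned.

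Ccnd1 (chromosome 7, 144929931 to 144939925, minus strand), the most abundant of these transcripts by CPM in WT cells, stood at 295, 464 and 447 CPM in RBPjcKO and 340, 344 and 350 CPM in WT libraries. RBPjcKO replicate 1 lay below all WT libraries and the others above them, so the log2 fold change of 0.22 (SE 0.17, adjusted p = 0.379) was 0.39 without that replicate (adjusted p = 0.0520). The cyclin gene Ccnd2 (chromosome 6, 127125709 to 127151048, minus strand) stood at 184, 303 and 262 CPM in RBPjcKO, against 306, 300 and 304 CPM in WT libraries. RBPjcKO replicate 2 lay within the WT range and the others below it. Ccnd2 was the only gene of the 10 with a negative log2 fold change, -0.28 (SE 0.17, adjusted p = 0.278), which was -0.11 without RBPjcKO replicate 1. The SD of Ccnd1 was 93.0 CPM in RBPjcKO and 4.76 CPM in WT, and that of Ccnd2 was 60.4 CPM in RBPjcKO and 3.20 CPM in WT, so for both genes the RBPjcKO libraries spread far wider.

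Levels of different genes were compared per length, as the authors' RPKM values. The 3 cyclins summed to 140, 198 and 191 RPKM in RBPjcKO and 155, 166 and 165 RPKM in WT libraries, and an exact permutation test (two-sided, 3 against 3, smallest possible p = 0.10) gave p = 0.40. Within that sum, Ccnd2 made up 18.6%, 22.0% and 19.9% in RBPjcKO, against 27.7%, 26.9% and 27.1% in WT libraries. The groups did not overlap, and the difference of -7.07 percentage points had the smallest p this exact permutation test allows, 0.10. The share of Ccnd3 was 36.2%, 26.7% and 28.4% in RBPjcKO and 25.5%, 26.1% and 25.5% in WT libraries (exact permutation p = 0.10), a difference of 4.74 percentage points that was 1.87 without RBPjcKO replicate 1. For Ccnd1 the shares were 45.2%, 51.3% and 51.7% in RBPjcKO and 46.8%, 47.0% and 47.4% in WT libraries (exact permutation p = 0.40).

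**Figure D2:**
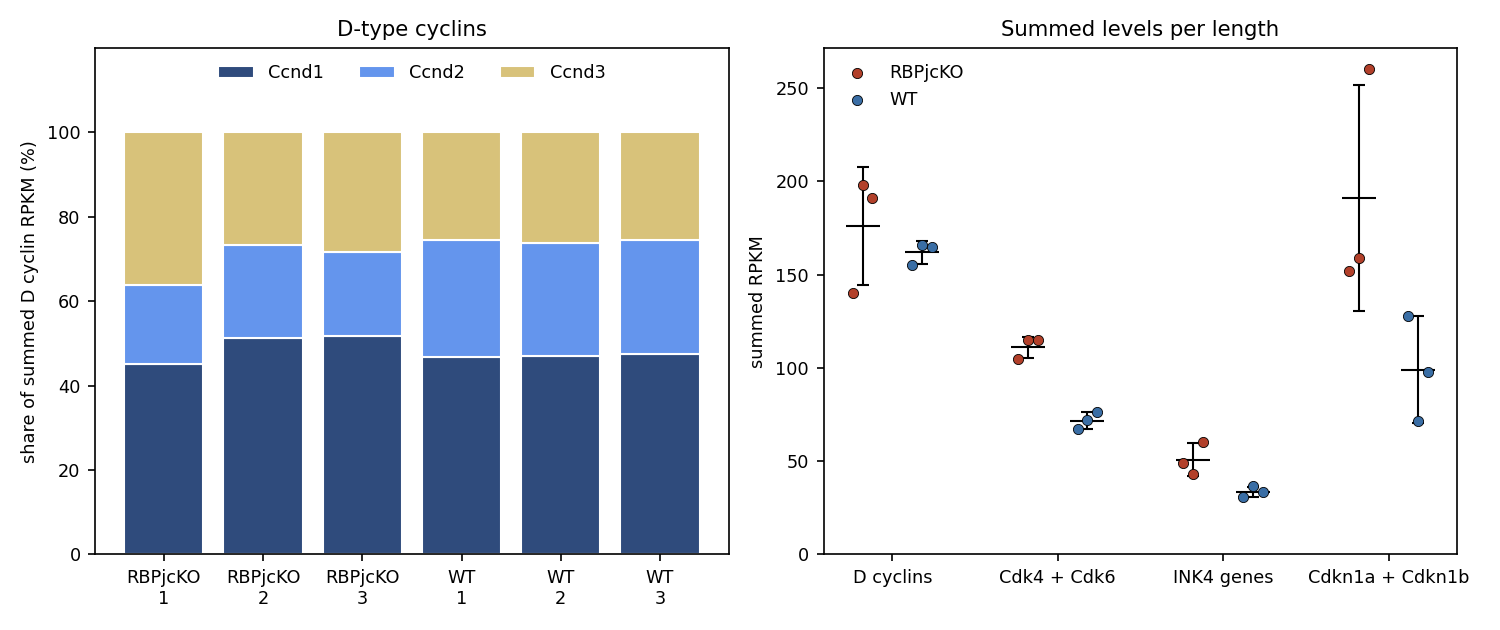
Left, the share of each D-type cyclin in their summed RPKM, with a stacked bar per library, RBPjcKO before WT; right, summed RPKM of 4 gene groups, with a point per library and bars for mean and SD (n = 3). The Ccnd2 segment is 18.6% to 22.0% in RBPjcKO and 26.9% to 27.7% in WT libraries, and the Cdk4 plus Cdk6 sum is 105 to 115 RPKM in RBPjcKO and 67.0 to 76.3 RPKM in WT libraries.

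The largest rises among the 10 genes were those of the INK4 genes Cdkn2a and Cdkn2b. Cdkn2a (chromosome 4, 89274473 to 89294619, minus strand), which encodes the INK4 inhibitor p16 and, in another reading frame, the p53 activator ARF, stood at 14.7, 9.34 and 22.6 CPM in RBPjcKO, against 4.97, 4.68 and 3.92 CPM in WT libraries. Every RBPjcKO library was above every WT library, and the RBPjcKO libraries differed among themselves by over 2-fold. The 3.44-fold rise had a log2 fold change of 1.78 (SE 0.31, adjusted p = 0.0121), and its adjusted p was 0.0505 without WT replicate 2. With the hepatocyte covariate its log2 fold change was 1.22 (adjusted p = 0.139). The deposited counts, 375 to 881 in RBPjcKO and 124 to 182 in WT, do not separate p16 from ARF. The GENCODE (vM21) transcripts Cdkn2a-201, which starts at the p16 exon, and Cdkn2a-202, which starts at the ARF exon, share 575 exonic bases and have 277 and 320 of their own, and the table lists 1 entry of 1136 bases for both.

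Both starts of Cdkn2a are shown because the entry cannot say which was used. The ARF start lies 12461 bases upstream of the p16 start in GENCODE, and the RefSeq windows are on the minus strand at chr4:89294620-89294869 and chr4:89282193-89282442.
Cdkn2a, ARF start: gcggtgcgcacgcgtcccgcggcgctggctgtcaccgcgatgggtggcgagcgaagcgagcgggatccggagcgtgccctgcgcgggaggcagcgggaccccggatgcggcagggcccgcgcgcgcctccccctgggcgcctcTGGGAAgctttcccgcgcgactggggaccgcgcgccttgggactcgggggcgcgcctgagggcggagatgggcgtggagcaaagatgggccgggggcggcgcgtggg
Cdkn2a, p16 start: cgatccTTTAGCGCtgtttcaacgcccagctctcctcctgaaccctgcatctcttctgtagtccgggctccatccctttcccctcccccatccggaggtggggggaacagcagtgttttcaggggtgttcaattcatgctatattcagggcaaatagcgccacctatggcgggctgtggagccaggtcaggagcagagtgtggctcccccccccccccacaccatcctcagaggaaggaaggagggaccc
The ARF window was 78.4% G or C and held the RBPJ core once, 107 bases before the start. The p16 window was 60.0% G or C and held the E2F motif once, 244 bases before the start.

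Cdkn2b, which encodes p15 (chromosome 4, 89306289 to 89311032, minus strand), has its entry separated from that of Cdkn2a by a gap of 11670 bases. Cdkn2b stood at 3.81, 5.55 and 8.32 CPM in RBPjcKO, against 2.02, 2.27 and 2.34 CPM in WT libraries, without overlap. The rise was 2.66-fold, with a log2 fold change of 1.41 (SE 0.30, adjusted p = 0.0227), on 147 to 324 counts in RBPjcKO and 74 to 85 counts in WT libraries. The call was the least stable of the 4. It held in 2 of the 6 fits that left out 1 library, with adjusted p up to 0.0762, and was lost without RBPjcKO replicate 2 or any of the WT replicates. With the hepatocyte covariate the log2 fold change was 0.80 (adjusted p = 0.304).

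Cdkn2c, which encodes p18 (chromosome 4, 109660876 to 109665372, minus strand), lies 20.3 megabases from Cdkn2b. Its entry stood at 15.5, 11.2 and 14.3 CPM in RBPjcKO, against 8.84, 9.63 and 10.3 CPM in WT libraries. The libraries did not overlap, and the log2 fold change of 0.51 (SE 0.16) missed the threshold by edgeR (adjusted p = 0.0637) and passed it by DESeq2 (adjusted p = 0.0277) and by edgeR without RBPjcKO replicate 2 (adjusted p = 0.0452). That entry matches the shorter GENCODE transcript, Cdkn2c-201, which starts 1817 bases downstream of the start of Cdkn2c-202. The 1580 bases of the first exon of Cdkn2c-202 lie outside it.

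A cDNA clone of the FANTOM3 collection, E130217A19, is listed at the same place. The clone covers 1073 bases of that upstream exon, 355 bases of the Cdkn2c entry and 2320 bases in neither. Those 2320 bases are intron in Cdkn2c-202, so counts of the clone do not separate exon from intron. The clone had 1174, 735 and 1102 counts in RBPjcKO libraries, against 253, 321 and 344 counts in WT libraries. In the fit with clones included it rose 2.94-fold (log2 fold change 1.56, SE 0.23, adjusted p = 0.00606), where 5.83% of all entries were called higher. Per count of the Cdkn2c entry, the clone had 1.96, 1.64 and 1.97 counts in RBPjcKO and 0.781, 0.892 and 1.06 in WT libraries, so the groups did not overlap. This clone was chosen after its values were seen, and how reads in the shared bases were assigned is not stated.

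The windows before the 2 RefSeq starts of Cdkn2c are shown to compare them. They lie on the minus strand at chr4:109666757-109667006 and chr4:109665373-109665622. The RefSeq upstream start lies downstream of the GENCODE start of Cdkn2c-202. Its window therefore falls within the first exon of that transcript (109665610 to 109667189), not before it.
Cdkn2c, upstream start: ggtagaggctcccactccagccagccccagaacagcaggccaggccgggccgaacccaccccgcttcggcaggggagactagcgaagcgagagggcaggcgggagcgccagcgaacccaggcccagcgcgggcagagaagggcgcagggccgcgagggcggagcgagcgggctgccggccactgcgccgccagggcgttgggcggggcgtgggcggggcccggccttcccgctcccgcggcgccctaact
Cdkn2c, downstream start: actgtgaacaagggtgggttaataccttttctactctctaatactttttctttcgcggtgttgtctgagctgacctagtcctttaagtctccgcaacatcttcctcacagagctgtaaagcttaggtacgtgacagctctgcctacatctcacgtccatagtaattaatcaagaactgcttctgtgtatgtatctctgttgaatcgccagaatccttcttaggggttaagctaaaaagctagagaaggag
They were 77.2% and 42.8% G or C, and neither held any of the 3 motifs.

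**Figure D3:**
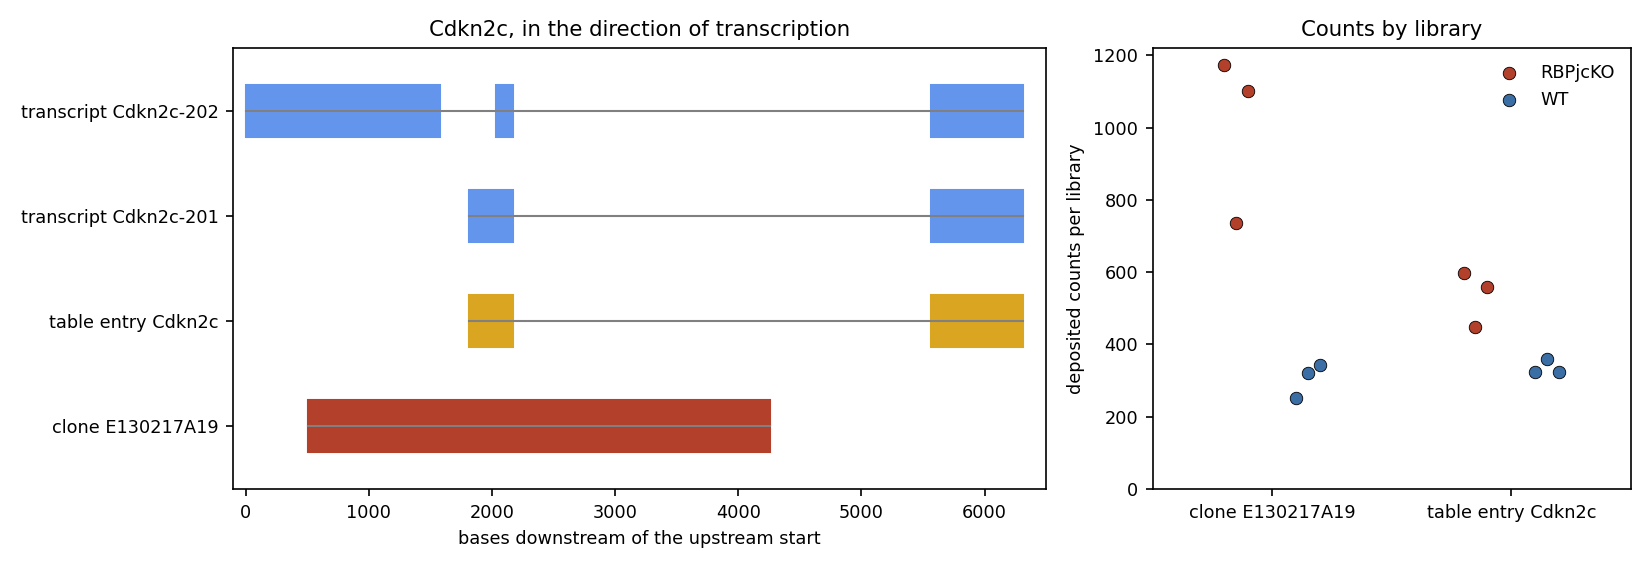
Left, features at Cdkn2c drawn to scale by distance in bases from the start of transcript Cdkn2c-202 (boxes are exons, or the whole clone; lines are introns); right, deposited counts per library for the clone and the Cdkn2c entry, RBPjcKO (red) before WT (blue). The clone reaches into the upstream exon that the entry lacks and into intron. It has 735 to 1174 counts in RBPjcKO and 253 to 344 counts in WT libraries.

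Of the CIP/KIP inhibitors, Cdkn1a (chromosome 17, 29090986 to 29100722, plus strand), a gene that p53 switches on, stood at 324, 327 and 561 CPM in RBPjcKO, against 265, 112 and 180 CPM in WT libraries. All RBPjcKO libraries were above all WT libraries, and both groups were widely spread. The log2 fold change was 1.12 (SE 0.34), a 2.18-fold difference that missed the threshold by edgeR (adjusted p = 0.0595) and passed it by DESeq2 (adjusted p = 0.00266) and without WT replicate 1 (adjusted p = 0.0423). The libraries highest in Cdkn1a within each group, RBPjcKO replicate 3 and WT replicate 1, were also the highest in summed hepatocyte and granulocyte markers. Granulocyte markers summed to 441, 677 and 1132 CPM in RBPjcKO and 570, 113 and 204 CPM in WT libraries. Within each group that is the order of Cdkn1a, and the summed hepatocyte markers had this order as well. RBPjcKO replicates 1 and 2 were nearly equal in Cdkn1a (324 and 327 CPM), so their order says little. No fit used granulocyte markers as a covariate, so their part was not tested. With the hepatocyte covariate the log2 fold change was 0.31 (adjusted p = 0.523). A cDNA clone lies within Cdkn1a on the opposite strand, with 2206 to 3328 counts in RBPjcKO and 708 to 1599 in WT libraries, and reads there cannot be assigned without strand. Cdkn1b (chromosome 6, 134920401 to 134925525, plus strand) stood at 64.4, 73.2 and 80.6 CPM in RBPjcKO and 68.3, 67.1 and 64.2 CPM in WT libraries, which overlapped. Its log2 fold change was 0.13 (SE 0.10, adjusted p = 0.391).

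**Figure D4:**
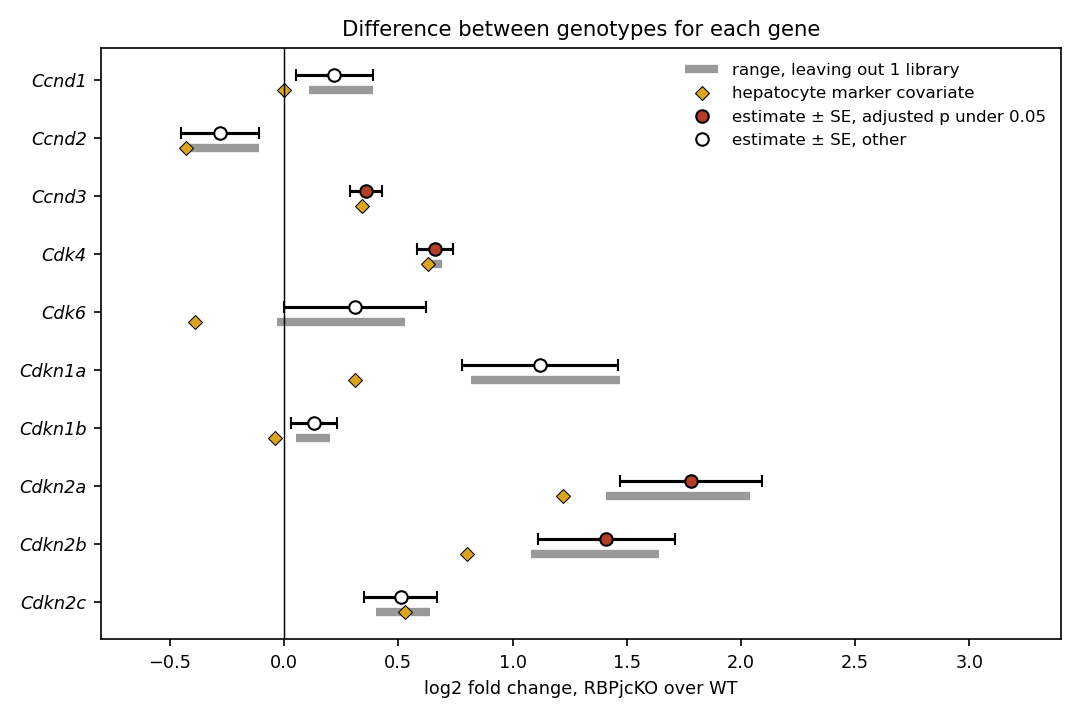
Log2 fold change of RBPjcKO over WT for each gene (horizontal axis), with its SE as whiskers, the range over 6 fits that each left out 1 library (grey) and the estimate with the hepatocyte marker covariate (diamonds). Filled circles (Ccnd3, Cdk4, Cdkn2a and Cdkn2b) had an adjusted p under 0.05; the covariate estimate of Cdkn1a is 0.31 where the estimate without it is 1.12.

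Ordered by mean RPKM, RBPjcKO cells had Cdkn1a (166 ± 57.7), Cdk4 (110 ± 5.34), Ccnd1 (87.9 ± 21.3), Ccnd3 (52.6 ± 1.82), Ccnd2 (35.9 ± 8.99), Cdkn1b (25.1 ± 3.16), Cdkn2a (11.4 ± 4.98), Cdkn2c (10.2 ± 1.61), Cdkn2b (3.52 ± 1.40) and Cdk6 (1.20 ± 0.486; SD, n = 3). There the library ranges of Ccnd2 and Cdkn1b and of Cdkn2a and Cdkn2c overlapped. In WT cells the order was Ccnd1 (76.1 ± 3.29), Cdkn1a (75.9 ± 29.1), Cdk4 (70.8 ± 4.67), Ccnd2 (44.1 ± 1.08), Ccnd3 (41.6 ± 1.91), Cdkn1b (23.2 ± 0.709), Cdkn2c (7.26 ± 0.730), Cdkn2a (3.33 ± 0.351), Cdkn2b (1.33 ± 0.142) and Cdk6 (0.976 ± 0.0418). There the ranges of Ccnd1 and Cdkn1a, of Cdkn1a and Cdk4, and of Ccnd2 and Ccnd3 overlapped. The deposited length of Cdk6, 2470 bases, leaves out most of its 11819 exonic bases in GENCODE, so its level rests on a part of the gene. Deposited lengths also fell well short of the exonic bases for Cdkn2c (1106 against 2686), Cdk4 (1346 against 2405) and Cdkn1b (2405 against 4552). Levels per length, and the order and sums built on them, hold for the deposited entries only.

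Summed over Cdkn2a, Cdkn2b, Cdkn2c and the fourth INK4 gene, Cdkn2d, which encodes p19, the INK4 level was 49.2, 42.8 and 60.4 RPKM in RBPjcKO, against 30.9, 36.4 and 33.3 RPKM in WT libraries. Cdk4 plus Cdk6 came to 105, 115 and 115 RPKM in RBPjcKO, against 67.0, 71.9 and 76.3 RPKM in WT libraries. Both sums were without overlap (exact permutation p = 0.10 each, the smallest possible). Their ratio was 0.470, 0.374 and 0.526 INK4 RPKM per kinase RPKM in RBPjcKO and 0.462, 0.507 and 0.437 in WT libraries, which overlapped (exact permutation p = 1.00). Cdkn1a plus Cdkn1b came to 152, 159 and 260 RPKM in RBPjcKO, against 128, 71.3 and 97.7 RPKM in WT libraries (exact permutation p = 0.10). Cdkn2d itself stood at 39.4 ± 2.57 CPM in RBPjcKO and 32.8 ± 2.36 CPM in WT (log2 fold change 0.27, adjusted p = 0.0971). By mean CPM it was the most abundant INK4 gene in both groups. The INK4 sum and the ratio thus rest heavily on a gene that is not among the 10 and was not called. The Cdkn2a part of the sum does not separate p16 from ARF, which is no INK4 protein. Cdkn2d, these sums and the ratio were chosen after the values of their genes were seen.

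Among other genes of the G1 to S transition, calls went both ways. Of 30 tested, 4 rose, 2 fell and 24 missed the threshold (16.7% of all genes were called), and the median of their log2 fold changes was 0.19. E2f2, an activating E2F gene, rose 3.62-fold (11.8 ± 1.09 CPM in RBPjcKO and 3.27 ± 1.10 CPM in WT), Cks1b, which encodes a partner of the ligase that degrades p27, rose 2.72-fold (6.70 ± 1.90 CPM in RBPjcKO and 2.47 ± 0.446 CPM in WT), and Tfdp1, an E2F partner gene, rose 1.47-fold (18.9 ± 2.31 CPM in RBPjcKO and 12.9 ± 0.461 CPM in WT). The repressive E2F gene E2f4 rose 1.26-fold. Rbl2, which encodes the pocket protein p130 of resting cells, fell 1.36-fold (34.2 ± 2.23 CPM in RBPjcKO and 46.5 ± 1.89 CPM in WT), and Cdk7, a gene of the kinase that activates other CDKs, fell 1.46-fold (18.4 ± 1.41 CPM in RBPjcKO and 26.9 ± 3.95 CPM in WT). Without RBPjcKO replicate 2, RBPjcKO replicate 3 or WT replicate 3 the list had 3 calls, and without WT replicate 2 it had 1.

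Genes known to act on these G1 genes in some cell type were called in numbers near the share over all genes, 16.7%. Of 22 tested, 3 were higher, 2 lower and 17 missed the threshold, with a median log2 fold change of 0.01. The growth regulator gene Myc rose 10.5-fold (353 ± 38.5 CPM in RBPjcKO and 33.7 ± 8.30 CPM in WT, adjusted p = 0.000406). Trp53, which encodes p53, rose 1.89-fold (115 ± 8.42 CPM in RBPjcKO and 60.6 ± 6.28 CPM in WT), and Smad3, a TGF-beta mediator gene, rose 1.84-fold (92.9 ± 4.66 CPM in RBPjcKO and 50.4 ± 7.01 CPM in WT). Hes1, a Notch target that represses transcription, fell 2.49-fold, and Gja4, the gene of connexin 37, fell 2.07-fold. Of 29 tested p53 target genes other than Cdkn1a, 6 rose, 2 fell and 21 did not pass, with a median of 0.01, where 16.7% of all genes were called. The largest were Gtse1, a gene expressed in S and G2 phase (5.00-fold higher), and the death receptor gene Tnfrsf10b (4.35-fold higher), with Eda2r (3.42-fold) and Bbc3, which encodes the apoptosis inducer PUMA (2.38-fold). Fas and Sesn1 fell 1.69-fold and 1.55-fold, and Mdm2, a p53 target and p53 ligase gene named outside the rule after its values were seen, stood at 49.8 ± 8.33 CPM in RBPjcKO and 47.8 ± 3.46 CPM in WT. Without WT replicate 2 the p53 list had 3 calls, and without WT replicate 1 it had 5.

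The S-phase and proliferation list moved mostly upward, with log2 fold changes above 0 for 27 of 30 genes. Of 30 genes tested, 15 rose, 0 fell by edgeR or DESeq2 (0 also at an unadjusted p under 0.05) and 15 did not pass, and the median log2 fold change was 0.70. Over all genes, 9.0% were called higher by edgeR and 12.7% by DESeq2. Its summed level was 770, 572 and 731 CPM in RBPjcKO, against 408, 423 and 523 CPM in WT libraries, without overlap. The largest rises were those of Top2a, a DNA topoisomerase gene (6.51-fold, 46.8 ± 17.1 CPM in RBPjcKO and 7.21 ± 3.58 CPM in WT), Birc5 (5.70-fold), the proliferation marker Mki67 (4.83-fold, 69.3 ± 28.1 CPM in RBPjcKO and 14.4 ± 5.40 CPM in WT) and the S-phase cyclin gene Ccna2 (4.62-fold, 22.8 ± 6.99 CPM in RBPjcKO and 4.94 ± 1.94 CPM in WT). E2f8 and Cdc45 rose 3.68-fold and 3.36-fold. The calls numbered 5 without WT replicate 2 and 9 without RBPjcKO replicate 1. With the hepatocyte covariate 0 were called (16 at an unadjusted p under 0.05, edgeR). The erythroid and platelet marker sum was also without overlap, at 55.7 to 63.9 CPM in RBPjcKO and 27.2 to 40.7 CPM in WT libraries, and its part in these rises was not tested.

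**Figure D5:**
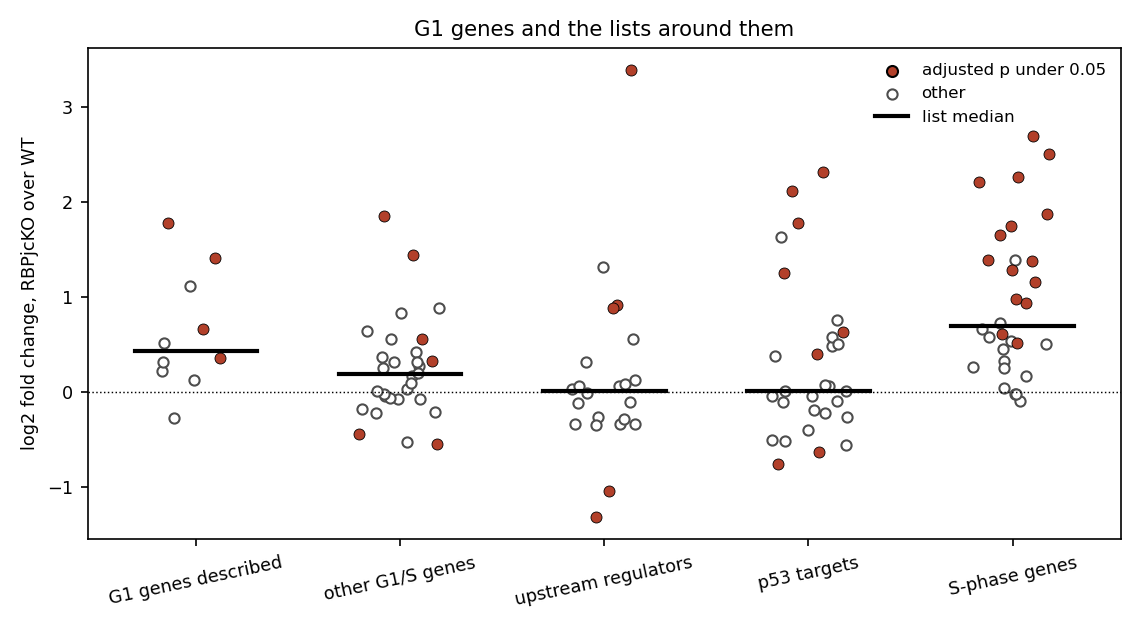
Log2 fold change of RBPjcKO over WT (vertical axis) for each tested gene of 5 lists, with called genes filled and the list median as a bar. Medians are 0.44 for the 10 G1 genes, 0.19 for other G1/S genes, 0.01 for upstream regulators and for p53 targets, and 0.70 for S-phase genes.

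The genes whose profile over the 6 libraries was most like that of Cdkn2a, the called gene with the largest log2 fold change, were found by the root mean square difference of mean-centred log2 CPM. They were 4930502E18Rik (0.145), Adamts9 (0.166), Asb4 (0.179), Pcdh1 (0.188) and Capg (0.194). The protease gene Adamts9 stood at 60.9, 51.2 and 93.3 CPM in RBPjcKO, against 20.2, 19.1 and 16.4 CPM in WT libraries. Its RBPjcKO libraries had the same order as those of Cdkn2a, which the choice by likeness over these libraries favours. The transcript 4930502E18Rik was nearly absent in WT libraries, at 0 to 0.0268 CPM, and its likeness depends on the 0.5 CPM added before taking logs.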

How the data were processed

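RNA was sequenced as paired reads from liver sinusoidal endothelial cells. Per the submitters' processing notes, bcl2fastq and TopHat2 2.0.13 were used with mm10 (GRCm38). Neither the counting tool nor the strand setting is given in the sources used here. Per the file headers, the authors deposited raw counts per entry and library and RPKM values. Those RPKM equal the counts scaled by the deposited length and the column total, at a ratio of 1.000 in each library. Of 56825 entries, 33353 cDNA clones were left out of the main test because clones can overlap named genes, 27 names that read as dates were looked up by gene identifier, and 1 blank line was skipped.

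Counts of named genes went through filterByExpr, with 10 as the smallest count and 15 as the smallest total, were TMM-scaled and compared, 3 RBPjcKO against 3 WT, with the quasi-likelihood test of edgeR 4.0.16 in R 4.3.3, Benjamini-Hochberg adjusted over 14869 genes at 0.05. The SE is the log2 fold change over the square root of F. Samples were grouped by the genotype label, with no batch labelled. Alternatives used DESeq2 1.42.0, limma 3.58.1 on log2(RPKM + 1) and log2(RPKM + 0.1), other scalings and filters, a robust fit, clones included, a hepatocyte marker covariate and leaving out each library. The genes and lists were chosen with earlier results of these data known. Named genes are the 10, Rbpj, the called genes with the largest changes in each of the other lists (at most 6), and the 5 profiles nearest the largest called change. Permutation tests used Python 3.11.15 with scipy 1.17.1. The fit was tested on simulated data.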

Additional observations from a re-analysis of the deposited data

Results flagged for a closer look

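The FANTOM3 clone E130217A19, which reaches into the upstream exon and into intron of Cdkn2c, was not part of the main comparison because clones were left out of it. In the fit with clones included its log2 fold change was 1.56, with every RBPjcKO library above every WT library. Of the 25 entries of the table that overlap the 10 genes, 22 are clones, and of the 16 with enough counts for a test, 2 were called, this clone and the named gene Bysl, where 10.7% of all entries were called in that fit. Groups of 3 libraries are too small for a test of single outlying libraries, so none was made.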

How the results depend on the processing

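Of 160 values of the 10 genes under 16 alternatives, 139 kept their direction and their side of the threshold, 13 lost a call, 4 gained a call and 4 turned sign. The hepatocyte covariate, which takes a degree of freedom from 6 libraries, had the widest effect. With it, 300 genes were called in all (2803 at an unadjusted p under 0.05), 0 of the 10 (3 unadjusted), 0 other G1/S genes (8 unadjusted), 3 upstream regulators, 0 p53 targets (8 unadjusted) and 0 S-phase genes (16 unadjusted), all by edgeR. Under it Cdk4 and Ccnd3 had log2 fold changes of 0.63 (adjusted p = 0.0617) and 0.34 (0.186), Cdkn2a 1.22 (0.139), Cdkn2b 0.80 (0.304), Ccnd1 -8.41e-06, Cdk6 -0.39 and Cdkn1b -0.04, and the cause was not tested. For Cdk6, leaving out each library gave -0.03 (without RBPjcKO replicate 3) to 0.53. Leaving out each library gave 796 to 1836 calls in all, with 796 without WT replicate 2, 1549 without WT replicate 3 and 1433 without RBPjcKO replicate 2. Those fits gave 1 to 4 calls among the 10 genes, with 1 (Cdk4) without WT replicate 2 and 2 without WT replicate 3. They gave 1 to 4 among other G1/S genes, 4 to 5 among upstream regulators, 3 to 9 among p53 targets and 5 to 15 among S-phase genes. Of the other genes named, E2f4 and Gja4 each lost their call under 9 of the 16 alternatives and Cdk7 under 7. With limma on log2(RPKM + 1), Cdkn2b lost its call (adjusted p = 0.0620). Scaling moved the median of all genes by at most 0.05 on the log2 scale. Shares of the D-type cyclins do not depend on the scaling. No paired analysis was possible because the labels give no replicate numbers shared between the genotypes. Cdk6 and Cdkn2b, with 88 to 197 and 74 to 324 counts per library, have the fewest counts of the 10.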

Other observations

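WT replicate 2, the library lowest in Cdkn1a among the WT libraries, was also the lowest of the 6 in Fos, Jun, Junb and Klf2, which were chosen after their values were seen. Fos stood at 3265, 2778 and 2819 CPM in RBPjcKO and 4590, 2556 and 3718 CPM in WT libraries. Jun stood at 6857, 5701 and 5888 CPM in RBPjcKO and 8511, 4911 and 6691 CPM in WT libraries. Junb stood at 4535, 4225 and 4433 CPM in RBPjcKO and 4958, 3129 and 4530 CPM in WT libraries. Klf2, a flow-responsive factor gene, stood at 856, 688 and 543 CPM in RBPjcKO and 1103, 534 and 1003 CPM in WT libraries. In each of these genes WT replicate 1 was the highest of the 6 libraries, as it was for Cdkn1a among the WT libraries, and none of the 4 was called. Klf4, another flow-responsive factor gene, did not follow this order, at 393, 360 and 404 CPM in RBPjcKO and 522, 392 and 550 CPM in WT libraries.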
